A study of Mus musculus with 6 samples.

Results

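BLIMP1, BACH2, BCL6 and a set of genes known from plasma cells were followed across 6 Affymetrix arrays of mouse plasmacytoid dendritic cells (pDCs), the dendritic cell type specialised in type I interferon secretion. The set held 8 genes, chosen by name, of 19937 measured. They were the transcription regulators Prdm1 (encoding BLIMP1), Bach2, Bcl6 and Pou2af1, the surface proteins Sdc1 and Tnfrsf17, and the endoplasmic reticulum proteins Mzb1 and Txndc5. Each was measured by 1 probe set, so the rule of taking the brightest probe set by the mean over 6 arrays had nothing to choose among, and the probe sets of all 8 shared a RefSeq transcript with their gene. Values are log2 expression levels, in which 1 unit is a doubling of signal.

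The series title names the question: the dependence on the transcription factor IRF8 of the last step of pDC maturation and of MYC repression. Splenic pDCs positive for B220 and SiglecH were taken from wild-type mice (WT, 3 arrays) and from mice lacking IRF8 (labelled KO, 3 arrays). The labels give neither age nor sex, nor the kind of Irf8 allele, nor whether an array stands for 1 animal or a pool. The p-values therefore reflect how these 6 samples scatter, and that scatter could be technical.

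BLIMP1 is a zinc finger repressor that drives B cells to become antibody-secreting plasma cells, and in that setting it is known to shut down the B cell programme, including Myc, Ciita, Pax5, Bcl6 and Pou2af1. BACH2 and BCL6 hold B cells back from that fate and repress Prdm1, so in B cells they stand together against BLIMP1. pDCs are secretory cells with a large endoplasmic reticulum and share several genes with plasma cells.

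Array medians lay between 5.53 and 5.56, so a shift shared by every transcript would not show. Irf8 itself stood at 10.14 ± 0.15 in the WT arrays against 10.47 ± 0.32 in the KO arrays (SD, n = 3 each; limma adjusted p = 0.425). Its probe set may lie outside the altered part of the gene and so checks nothing, and every direction below rests on the labels. The mean log2 level of 12 measured pDC markers was 10.99 to 11.14 in the WT arrays and 10.68 to 10.84 in the KO arrays. The list includes Siglech, at 12.62 and 12.27, and Ptprc, the gene of B220, both named after their values were seen. The cells were sorted on both proteins, so the levels of these genes cannot check pDC identity. Of the 12 markers 0 rose and 3 fell: Pacsin1 by 0.78 (adjusted p = 0.00746), the chemokine receptor gene Ccr9 by 0.97 (0.0221) and the nucleic acid sensor gene Tlr7 by 0.60 (0.0484). Without WT replicate 2, WT replicate 3 or KO replicate 2 only 1 fell, and without KO replicate 1 there was 1 that rose. Pacsin1 kept its call under all 15 alternatives. Ccr9 lost it without WT replicate 2, WT replicate 3, KO replicate 2 or KO replicate 3 (adjusted p up to 0.0817). Tlr7 lost it without any single array other than KO replicate 1 (adjusted p up to 0.165), with centred medians (0.0517) and with a variance trend (0.0783). KO replicate 1 stood apart: 10 neutrophil granule genes averaged 9.07 there, against 6.18 and 5.52 in the other KO arrays and 4.75 to 5.95 in WT, and 14 cell cycle genes averaged 7.90, against 6.40 and 6.28 in the other KO arrays and 5.91 to 5.96 in WT. Results on the 8 genes are therefore also given without that array. Leaving it out does not remove all neutrophil signal. S100a8, of the neutrophil list, measured 9.3, 4.9 and 4.4 in WT and 12.7, 9.0 and 7.5 in KO (limma adjusted p = 0.351). S100a9 followed the same order. In bulk samples, fewer cells of a type and less RNA per cell cannot be told apart.

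The stretches just before the transcription starts are shown for the pair of genes that rose, Prdm1 and Sdc1, for the one that fell, Txndc5, and for Bcl6, whose window holds matches to its own protein's known motif. RefSeq promoter sequences of build GRCm38.p6 were at hand for 7 of the 8 genes, in 10 windows of 250 bases. Both strands were searched for the core letters of 7 motifs: GAAANNGAA of interferon regulatory factors, GGAANNGAA of an ETS factor with an IRF, AAGTGAAAG of BLIMP1, GCTGAGTCA of BACH2 with a small MAF protein, TTCCNNGAA of BCL6 and STAT factors, CACGTG of MYC with MAX, and TGACGTGG of XBP1. The motifs of BLIMP1 and of IRF factors share letters and can overlap. Each sequence runs 5′ to 3′ on the gene's strand and ends at the base before the start, with motif matches in capitals.
Prdm1, chr10:44458749-44458998, strand -: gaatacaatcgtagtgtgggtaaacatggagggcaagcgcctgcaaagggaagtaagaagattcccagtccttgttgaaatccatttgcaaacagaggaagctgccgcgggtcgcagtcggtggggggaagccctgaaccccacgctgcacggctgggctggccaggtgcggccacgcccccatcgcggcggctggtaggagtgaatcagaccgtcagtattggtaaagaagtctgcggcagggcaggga
Sdc1, chr12:8771146-8771395, strand +: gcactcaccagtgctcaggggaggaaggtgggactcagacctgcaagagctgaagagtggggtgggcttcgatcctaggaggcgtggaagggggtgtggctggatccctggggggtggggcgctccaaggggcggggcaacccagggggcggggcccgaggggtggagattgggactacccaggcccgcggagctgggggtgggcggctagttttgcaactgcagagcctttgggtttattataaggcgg
Txndc5 (the innermost of its windows), chr13:38527915-38528164, strand -: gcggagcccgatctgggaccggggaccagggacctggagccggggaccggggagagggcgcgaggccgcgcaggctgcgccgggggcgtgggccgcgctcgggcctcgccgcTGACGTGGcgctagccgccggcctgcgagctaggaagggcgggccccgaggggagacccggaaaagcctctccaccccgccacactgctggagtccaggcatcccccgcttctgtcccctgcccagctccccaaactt
Bcl6 (the inner of its windows), chr16:23981284-23981533, strand -: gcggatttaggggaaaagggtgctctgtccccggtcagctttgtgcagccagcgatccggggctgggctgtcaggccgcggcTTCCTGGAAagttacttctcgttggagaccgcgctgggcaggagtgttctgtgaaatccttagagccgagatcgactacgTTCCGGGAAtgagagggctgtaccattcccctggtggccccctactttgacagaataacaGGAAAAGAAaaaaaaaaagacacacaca

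The Prdm1 and Sdc1 windows held none of the 7 motifs, which says only that these letters are not in these stretches. The Bcl6 window held 3 matches. TTCCTGGAA lay 168 to 160 bases and TTCCGGGAA 88 to 80 bases before the start, both of the BCL6 and STAT motif, which 4.06% of 32851 mouse promoter windows of that length hold. GGAAAAGAA, of the ETS and IRF motif held by 6.99% of windows, lay 28 to 20 bases before the start. The Txndc5 window held TGACGTGG, of the XBP1 motif, 138 to 131 bases before the start, and 0.563% of windows hold it. The same XBP1 motif lay 61 to 54 bases before the Pou2af1 start. The Bach2 window held the ETS and IRF motif on the opposite strand, 16 to 8 bases before the start. The IRF motif, which 7.13% of windows hold, lay on the opposite strand 240 to 232 and 162 to 154 bases before the outermost Txndc5 start and 100 to 92 bases before the Tnfrsf17 start. The middle Txndc5 window held the ETS and IRF motif 171 to 163 bases and the outer Bcl6 window CACGTG 60 to 55 bases before the start, the latter in 6.02% of windows. The BLIMP1 and BACH2 motifs, held by 0.368% and 0.39% of windows, were in none of the 10. These matches are descriptions of the letters and not shown sites of binding.

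Prdm1 was 11.2-fold higher in KO. Its log2 level was 5.75, 5.54 and 6.27 in WT replicates 1 to 3 and 9.02, 9.19 and 9.80 in KO replicates 1 to 3. All KO arrays lay far above all WT arrays, and the gap between the groups was larger than the spread within either. The means of 5.85 ± 0.37 and 9.34 ± 0.41 (SD, n = 3 each) differed by 3.49 log2 units (SE 0.25, 95% interval 2.90 to 4.08, limma adjusted p = 0.000412), which was the 14th largest rise of 19937 genes. An exact two-sided permutation test gave p = 0.10, and with 3 arrays a group it can give no smaller value. Without KO replicate 1 the difference was 3.65.

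Sdc1, which encodes syndecan-1 (CD138), the surface proteoglycan used to identify plasma cells, was 5.57-fold higher. It measured 5.69, 5.90 and 5.97 in the WT arrays and 7.66, 8.49 and 8.83 in the KO arrays. The WT arrays lay close together, while the KO arrays spread over more than 1 log2 unit with KO replicate 1 lowest. The log2 difference was 2.48 (SE 0.28, 95% interval 1.83 to 3.12, limma adjusted p = 0.00308), and 2.81 without KO replicate 1.

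Txndc5, a protein disulfide isomerase that helps secreted proteins to fold, fell 2.32-fold. It measured 8.62, 8.16 and 8.61 in WT and 6.80, 7.56 and 7.39 in KO. The groups did not overlap, and KO replicate 1 was again the lowest. The log2 difference was -1.22 (SE 0.22, 95% interval -1.73 to -0.70, limma adjusted p = 0.0244). Its call was lost without WT replicate 1 (adjusted p = 0.0816), WT replicate 3 (0.0997) or KO replicate 3 (0.0667), and held without KO replicate 1 (difference -0.99, adjusted p = 0.0168).

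**Figure D1:**
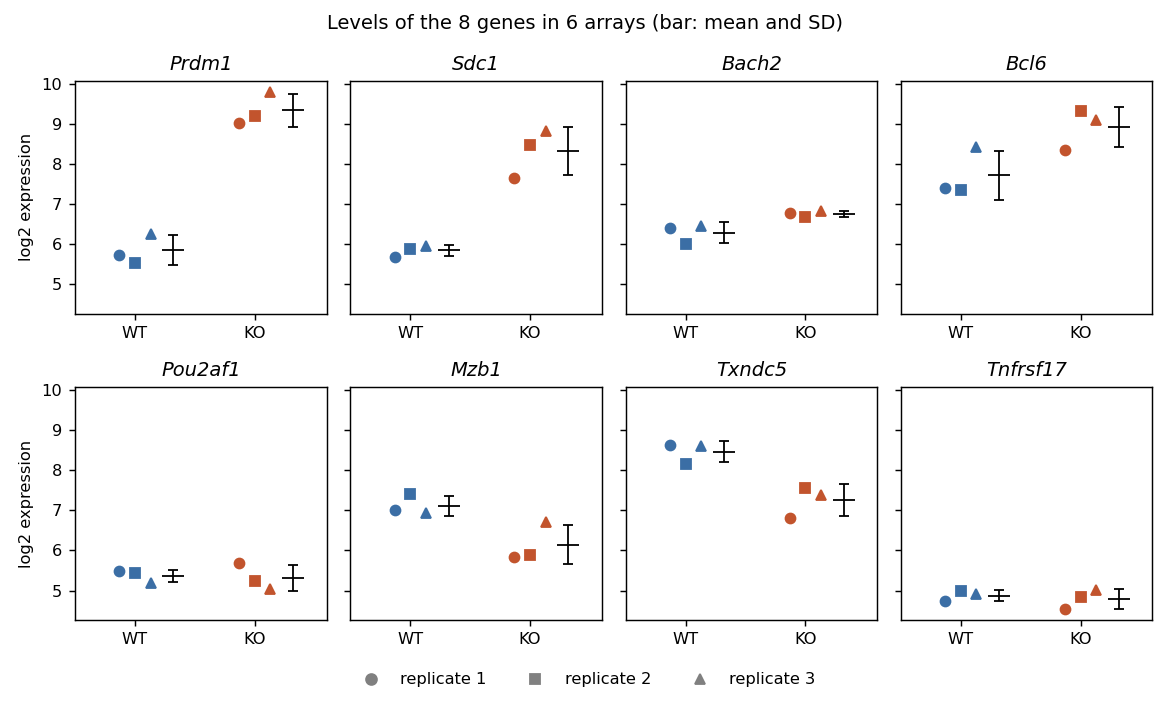
Log2 expression of the 8 genes in each array, with WT in blue, KO in orange, a symbol per replicate number, and the group mean and SD beside the points. Prdm1 lies between 5.54 and 6.27 in WT and between 9.02 and 9.80 in KO, while Pou2af1 and Tnfrsf17 overlap between the groups.

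Of the 8 genes, 2 rose and 1 fell by limma at an adjusted p of 0.05, where 2.3% of all genes rose, 2.08% fell and 4.38% passed in either direction. For 5 of the 8 the KO and WT values did not overlap, which held for 20.4% of all genes. The median difference of the 8 was 0.21, beside -0.04 over all genes, and 4 differences were positive. The genes were picked with earlier results of these data known, so these shares describe them and test nothing.

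Bcl6, which encodes a zinc finger repressor of germinal centre B cells, did not pass the test. It measured 7.40, 7.34 and 8.43 in WT and 8.36, 9.33 and 9.09 in KO. WT replicate 3 lay among the KO values, just above KO replicate 1. The log2 difference was 1.20 (SE 0.35, limma adjusted p = 0.121), and its 95% interval, which like all intervals here is not adjusted for the number of genes, ran from 0.39 to 2.01. Without KO replicate 1 it passed, with a difference of 1.49 (adjusted p = 0.0337), and with array weights it passed too (0.0313).

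Bach2, which encodes a repressor that dimerises with small MAF proteins and holds B and T cells in an undifferentiated state, measured 6.41, 6.0 and 6.46 in WT and 6.78, 6.67 and 6.82 in KO. The groups did not overlap, yet their means differed by little and the test was not passed. The log2 difference was 0.46 (95% interval 0.12 to 0.80, limma adjusted p = 0.157), and 0.45 without KO replicate 1.

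Pou2af1, which encodes the coactivator OCA-B of the octamer-binding factors OCT1 and OCT2, measured 5.48, 5.43 and 5.19 in WT and 5.68, 5.24 and 5.05 in KO. The ranges overlapped wholly and the log2 difference was -0.05 (95% interval -0.46 to 0.37, limma adjusted p = 0.938), and -0.23 without KO replicate 1 (0.451). Tnfrsf17, which encodes BCMA, the survival receptor of plasma cells, measured 4.73, 4.99 and 4.91 in WT and 4.54, 4.83 and 5.01 in KO. The KO range enclosed the WT range here too, and the log2 difference was -0.09 (95% interval -0.43 to 0.26, limma adjusted p = 0.856). Without KO replicate 1 it was 0.04, with the sign turned (adjusted p = 0.921). Both signals lay below 5.67, the median of all gene levels, and no detection calls were used, so a change in a transcript near background could be hidden.

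Mzb1, an endoplasmic reticulum protein of marginal zone B cells, plasma cells and pDCs, measured 7.01, 7.40 and 6.93 in WT and 5.84, 5.88 and 6.71 in KO. All KO arrays were lower than all WT arrays, with KO replicate 3 close to the WT range. The log2 difference was -0.97 (SE 0.25, 95% interval -1.55 to -0.39) and missed the threshold (limma adjusted p = 0.0859). Without KO replicate 3 it passed, with a difference of -1.26 (adjusted p = 0.0190), and without KO replicate 1 it measured -0.82 (0.116).

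**Figure D2:**
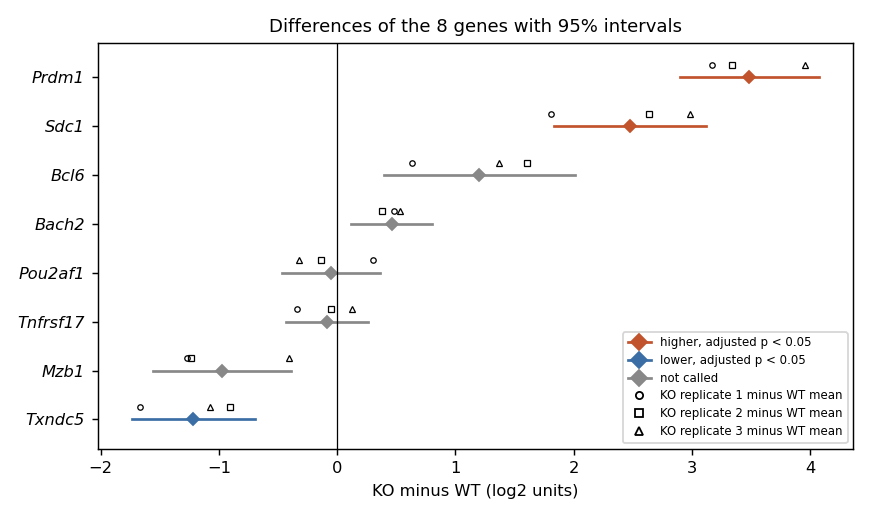
KO minus WT in log2 units for the 8 genes, as diamonds with 95% intervals coloured by call, and small open symbols for each KO array minus the WT mean. Prdm1 and Sdc1 are the genes called higher and Txndc5 the gene called lower, while the intervals of Pou2af1 and Tnfrsf17 include 0.

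None of the members known as BLIMP1 repression targets in B cells fell in KO, where Prdm1 was high. Those were Bcl6, Bach2 and Pou2af1, whose differences were 1.20, 0.46 and -0.05. Of 13 measured targets outside the set, 5 passed limma's threshold over all genes upward and 0 downward, with a median difference of 0.57 beside -0.04 over all genes. The shares of all genes that rose and fell were 2.3% and 2.08%. Several targets lay low in WT, so a fall could be hidden. Cd79a averaged 4.07, under the 25th percentile of all levels (4.56), and Pou2af1 5.37 and Cd22 5.46, under the median (5.67). Myc, the growth-promoting transcription factor of the study's question, measured 5.90, 5.92 and 6.20 in WT and 9.69, 8.37 and 8.61 in KO, a difference of 2.88 (adjusted p = 0.00289). It was highest in KO replicate 1, the array with the highest cell cycle list. Prdm1 was lowest there among the KO arrays, but only narrowly (9.02 against 9.19 in KO replicate 2). Other targets went both ways there, as given below, and a relation to Prdm1 across the KO arrays was not tested. Ciita, the master regulator of MHC class II genes, rose by 0.90 from 7.12 to 8.02 (adjusted p = 0.00717) and was named after its values were seen.

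The other 3 targets that rose belong to B cell receptor signalling. Blk, a SRC family kinase, rose by 2.42 (adjusted p = 4.81e-05), Cd79a, a signalling chain of the receptor, by 1.65 (0.00603), and Cd22, an inhibitory co-receptor, by 1.51 (0.0213). The call of Cd22 ended when WT replicate 2, WT replicate 3 or KO replicate 3 was left out (adjusted p up to 0.0922). Among the KO arrays, Cd79a and Cd22 were highest in KO replicate 1, like Myc. Blk, Ciita and Bcl6 were lowest there, like Prdm1. Some gaps were small, with Cd79a at 5.81 against 5.77 in KO replicate 3, and Ciita at 7.97 against 8.02 in KO replicate 3. Among the 8 that passed in neither direction were Spib, an ETS factor of pDCs and B cells (WT mean 10.97, KO mean 10.23, adjusted p = 0.0949), and, named after their values were seen, Id3, an inhibitor of E proteins (6.34 and 7.0, 0.0943), and Pax5, the B cell commitment factor (5.21 and 5.54, 0.186). Spib passed without KO replicate 3 (adjusted p = 0.0463) and Id3 without WT replicate 2 (0.0249).

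**Figure D3:**
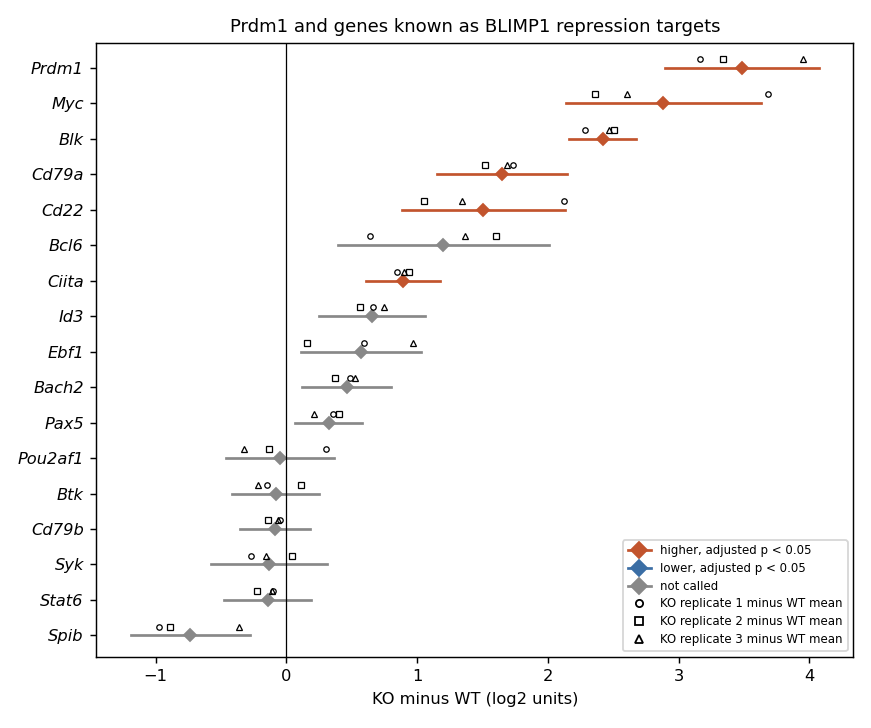
KO minus WT in log2 units with 95% intervals for Prdm1 and 16 genes known as BLIMP1 repression targets, with each KO array minus the WT mean as small open symbols. Prdm1, Myc, Blk, Cd79a, Cd22 and Ciita are called higher and no gene is called lower.

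Of the 13 targets, 6 also stand in the list of B cell markers. Of 13 measured B cell markers, 6 rose and 0 fell, and their mean log2 level was 5.61 to 5.69 in the WT arrays and 6.32 to 6.54 in the KO arrays. Beside Blk, Cd79a and Cd22, the adaptor Bank1 rose by 2.47 (adjusted p = 0.00361). Cd72, a B cell co-receptor, and Fcer2a, which encodes the low-affinity IgE receptor CD23, both named after their values were seen, rose by 0.85 (0.0185) and 0.60 (0.0202). Without WT replicate 3 or KO replicate 3 the count was 3 and not 6, with Cd22, Cd72 and Fcer2a lost. Cd72 was also lost without WT replicate 2 or KO replicate 2 (adjusted p up to 0.0791), and Fcer2a without WT replicate 1, KO replicate 2 or both arrays numbered 1 (up to 0.0999). Ms4a1, which encodes the defining B cell antigen CD20 and was chosen after its values were seen, averaged 3.56 in the WT arrays and 3.40 in the KO arrays (adjusted p = 0.789), below the 25th percentile of all levels, 4.56. The part of B cells in the rise of Prdm1 and Sdc1 was not tested.

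Of 7 measured plasma cell markers, 2 rose and 0 fell. They were Sdc1 and Slamf7, a receptor of plasma cells, NK cells and pDCs that rose by 1.30 (adjusted p = 0.00182). The list's mean log2 level was 6.01 to 6.67 in WT and 6.87 to 7.26 in KO. The immunoglobulin heavy chain genes, named after their values were seen, passed in neither direction, with Igha at 6.53 in both groups and Ighm at a WT mean of 6.12 and a KO mean of 6.29 (adjusted p = 0.999 and 0.823). Unlike those of the 8 genes, the probe sets used for Igha and Ighm shared no RefSeq transcript with their gene. A change in these transcripts could therefore be missed. Derl3, which removes misfolded proteins from the endoplasmic reticulum and was chosen after its values were seen, measured 5.89 and 6.10 (adjusted p = 0.405). Tnfrsf17 passed in neither direction, as given above. Jchain, the joining chain of secreted antibodies, chosen after its values were seen, gave 4.49, 8.41 and 7.96 in WT and 7.24, 8.04 and 7.90 in KO, so WT replicate 1 lay far below the other 5 arrays (adjusted p = 0.778).

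**Figure D4:**
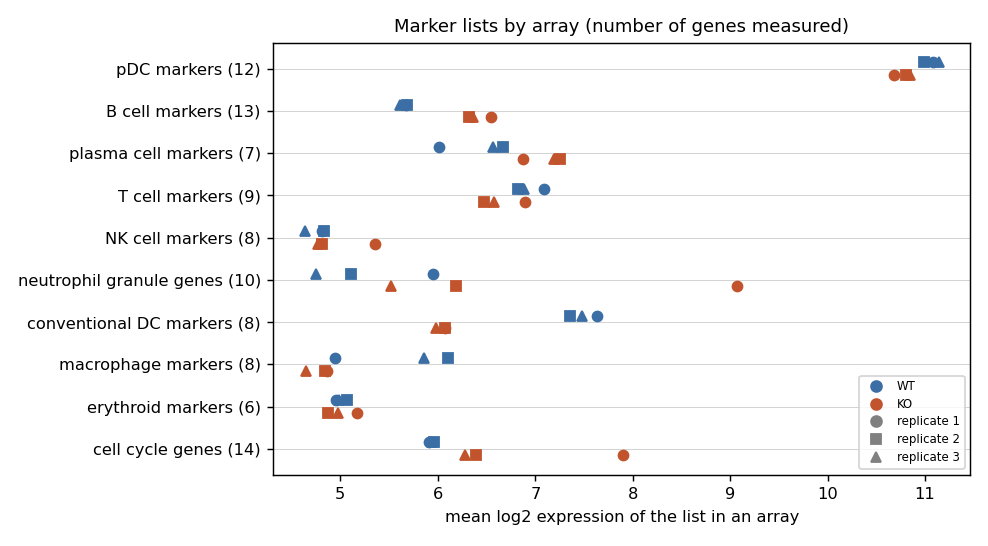
Mean log2 expression of each marker list in each array, with WT in blue and KO in orange, a symbol per replicate number and the number of measured genes in brackets. Neutrophil granule genes reach 9.07 and cell cycle genes 7.90 in KO replicate 1, and B cell markers lie at 5.61 to 5.69 in WT and 6.32 to 6.54 in KO.

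Other markers moved in part. Of 9 measured T cell markers 1 rose and 2 fell, of 8 conventional dendritic cell markers 1 rose and 3 fell, and of 8 macrophage markers 0 rose and 1 fell. Cd5 rose, and Cd4 and Cd8b1 fell. Itgax rose by 1.8, and Clec9a, Cd209a and Clec10a fell by 6.3, 3.7 and 2.6. The fall of Clec9a was the largest of all genes. The T cell marker that rose was lost without WT replicate 2, KO replicate 2 or KO replicate 3. All 8 macrophage differences were negative. The macrophage gene that fell was C1qb, and without WT replicate 2, WT replicate 3, KO replicate 2 or KO replicate 3 the count was 0. Without WT replicate 1 it was 3, and without both arrays numbered 1 it was 4. Of 8 NK cell markers, 10 neutrophil granule genes, 6 erythroid markers and 14 cell cycle genes 0 rose and 0 fell by limma's adjusted p, and of 12 immediate early genes 1 rose. All 14 cell cycle and all 10 neutrophil differences were positive, and calls appeared once KO replicate 1 was left out. Then 3 cell cycle genes, 1 neutrophil gene and 3 immediate early genes passed as higher, among them the cell division genes Top2a (adjusted p = 0.0149) and Ccnb2 (0.0102). Without both arrays numbered 1, 3 cell cycle genes, 2 neutrophil genes, 1 NK cell gene and 4 immediate early genes passed as higher. With the replicate number as a block, 2 neutrophil genes, S100a8 and S100a9, 1 NK cell gene and 2 immediate early genes passed as higher. With array weights or with a variance trend, 1 NK cell gene passed as lower. An unadjusted p under 0.05 was found for 3203 of all genes. Without KO replicate 1, where the neutrophil and cell cycle lists were highest, the differences of Prdm1 and Sdc1 were larger and that of Txndc5 was smaller, as given above.

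Among the regulators and surface genes that mark plasma cells, 3 of 15 measured rose and 1 fell, with a median difference of 0.42. The count of 3 became 5 without KO replicate 1 and 6 without both arrays numbered 1. Irf4, the factor that induces Prdm1 in B cells, measured 8.24, 9.11 and 9.37 in WT and 9.75, 10.89 and 11.21 in KO. The groups did not overlap, but each spanned more than 1 log2 unit, and the difference of 1.71 (95% interval 0.74 to 2.68) did not pass (limma adjusted p = 0.0722). In both groups replicate 1 was lowest and replicate 3 highest. Irf4 passed in 5 of 15 alternatives. They were the fits without KO replicate 1 (adjusted p = 0.00781), without both arrays numbered 1 (0.00202) and with the replicate number as a block (0.000673). The others were bright genes alone (0.0431) and array weights (0.0147). Xbp1, the regulator of the secretory apparatus, chosen after its values were seen, averaged 9.03 in the WT arrays and 8.78 in the KO arrays (adjusted p = 0.695).

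Beside Slamf7, the genes of that list that rose were Zbp1, a sensor of Z-form nucleic acids that interferon induces, by 1.55 (adjusted p = 0.00852), and Itga4, an integrin chain, by 0.97 (0.00924). Epcam, an adhesion molecule, fell by 0.65 (0.0213), a call that was lost without any single array other than KO replicate 1 (highest adjusted p 0.0929).

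Txndc5 and Mzb1 stood among 25 measured genes of the plasma cell secretory apparatus, of which limma called 1 higher and 4 lower over all genes. The median difference was -0.29 beside -0.04 over all genes, and 20 of the 25 differences were negative. Without Txndc5 and Mzb1, 1 of 23 rose, 3 fell and 18 differences were negative. Edem2, which targets misfolded glycoproteins for degradation, fell by 1.00 from 8.06 to 7.06 (adjusted p = 0.00385). Creld2, a stress-induced endoplasmic reticulum protein, fell by 0.74 (0.0450), and Herpud1, a part of the degradation machinery named after its values were seen, fell by 0.64 (0.0328).

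The calls of Creld2 and Herpud1 were each lost without any single array other than KO replicate 1 (highest adjusted p 0.151 and 0.105), with a variance trend (0.0619 and 0.0528) and without both arrays numbered 1 (0.0615 and 0.0810). Tram2, a translocation protein of the endoplasmic reticulum, went the other way and rose by 1.44 from 7.59 to 9.03 (adjusted p = 0.0129), a call that ended when either array numbered 2 was left out (adjusted p up to 0.0608). Hspa5, the chaperone BiP, was chosen after its values were seen and gave 10.60, 11.82 and 12.06 in the KO arrays against 10.71, 11.35 and 11.26 in WT (adjusted p = 0.710). It thus lay below every WT array in KO replicate 1 and above them in the other 2. Relative to the WT mean, the median of the list lay at -0.44, -0.20 and -0.13 in KO replicates 1, 2 and 3.

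**Figure D5:**
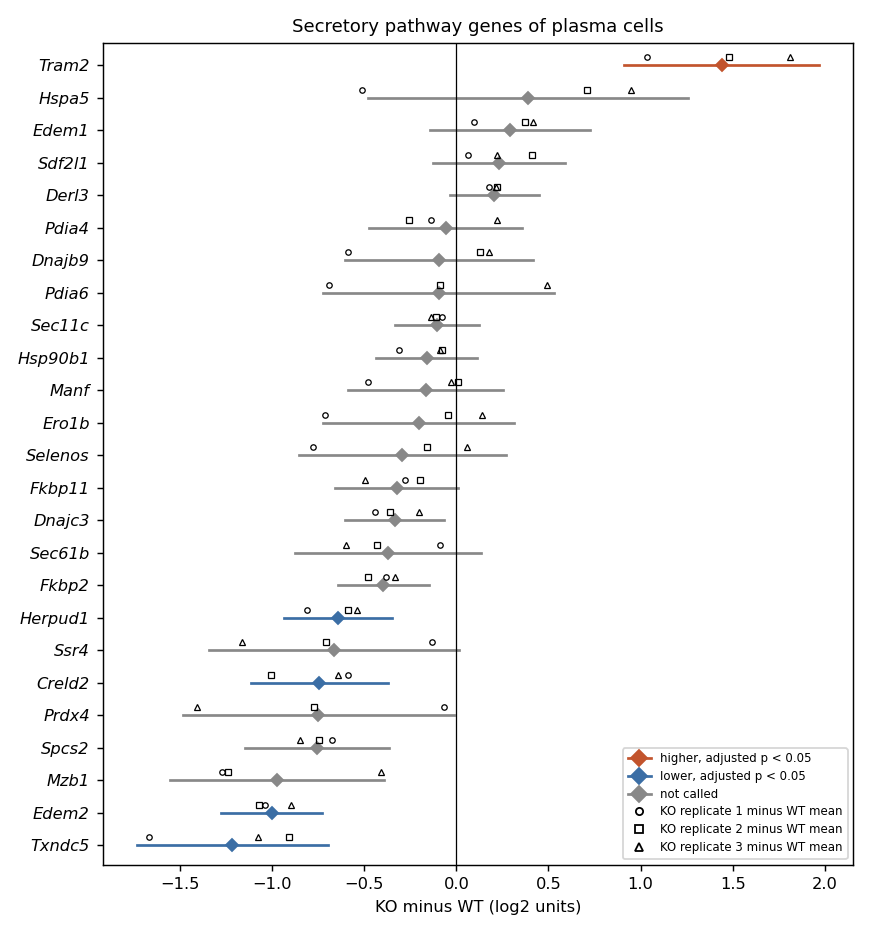
KO minus WT in log2 units with 95% intervals for 25 secretory genes of plasma cells, with each KO array minus the WT mean as small open symbols. Txndc5, Edem2, Creld2 and Herpud1 are called lower and Tram2 higher, and 20 of the 25 differences are negative.

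Around BACH2, 1 of 10 measured family members, partners and haem genes rose and 0 fell. Leaving out KO replicate 1 gave 3 that rose and 1 that fell. Maff, a small MAF protein, rose by 0.94 (adjusted p = 0.0301), a call that ended when WT replicate 1, WT replicate 3, KO replicate 2 or KO replicate 3 was left out (adjusted p up to 0.118). Bach1, the paralog of Bach2, and Nfe2l2, which encodes the activator NRF2 that competes for the same sites, were named after their values were seen. Bach1 measured 7.37, 7.82 and 7.72 in WT and 7.99, 9.43 and 9.65 in KO (adjusted p = 0.124), and Nfe2l2 differed by 1.21 (0.0925). Without KO replicate 1 both passed, with adjusted p of 0.00108 and 0.000585.

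Hmox1, the haem oxygenase gene that BACH1 and BACH2 repress, was chosen after its values were seen and gave 6.66, 8.39 and 8.56 in WT and 6.03, 6.60 and 6.29 in KO (difference -1.56, adjusted p = 0.136). WT replicate 1 lay close to the KO arrays, and without it Hmox1 passed, with a difference of -2.17 (adjusted p = 0.00299). The macrophage gene C1qc, also chosen after its values were seen, was likewise lowest in replicate 1 among the WT arrays, with 5.84, 8.93 and 8.57. It passed without that array too (difference -3.43, adjusted p = 0.00158), and the mean of 8 macrophage markers was 4.94, 6.10 and 5.86 in the WT arrays and 4.65 to 4.86 in KO. The part of macrophages in the Hmox1 values was not tested.

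Around BCL6, 2 of 8 measured corepressors, relatives and target genes rose and 0 fell. Both are genes that BCL6 can repress: Cish, an inhibitor of cytokine signalling, rose by 0.94 (adjusted p = 0.0128), and Cd69, an early activation marker, by 0.94 (0.0169). Neither call held once KO replicate 2 or KO replicate 3 was left out. Cish also dropped out in the absence of WT replicate 2, and Cd69 in that of WT replicate 3, with adjusted p values up to 0.0616 and 0.0735.

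Of the other lists 0 genes rose and 0 fell by limma's adjusted p. They were 2 measured genes listed around OCA-B, Pou2f2 and Spib, 4 BCMA ligands and relatives, and 9 other PRDM family genes. Without KO replicate 3, Spib, an ETS factor and not an octamer-binding partner, passed as lower, as given above. Pou2f2, which encodes OCT2, averaged 7.01 in the WT and 7.43 in the KO arrays (adjusted p = 0.141). Tnfrsf13c, the BAFF receptor, measured 8.16 and 7.39 (0.113), and passed without KO replicate 1 (0.0183). Its ligand Tnfsf13b (BAFF) measured 4.13 and 4.43 (0.233). In the PRDM family the largest differences beside that of Prdm1 were 0.36 for Prdm4 (adjusted p = 0.497) and -0.16 for Prdm8 (0.596), and the median over the 9 was 0.00.

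The 5 genes whose pattern over the 6 arrays was most like that of Prdm1 were Pard3b, Phlpp1, Lrrc15, Rasgrp3 and Arhgef3, with Pearson r from 0.997 to 0.999 among 1381 genes with a standard deviation of at least 0.5. The 6 arrays form 2 separate groups, so r mostly reflects the genotype difference, and 160 of the 1381 genes had an r above 0.95. Lrrc15, a leucine-rich repeat membrane protein, measured 5.78, 5.79 and 6.24 in WT and 8.69, 8.72 and 9.15 in KO. Like Prdm1 it was highest in replicate 3 of each group.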

How the data were processed

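RNA of splenic pDCs was amplified with a NuGen kit and hybridised to Affymetrix arrays, per the labels' protocols. The authors deposited log2 expression values for 34760 probe sets in 6 arrays, with array medians of 5.53 to 5.56. How they were computed and normalized is not given in the sources used here. Precision is limited by the number of arrays.

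The probe sets with 1 gene symbol in the platform annotation (21640) were kept, 1321 with several symbols and 11799 not listed were left out, and the brightest probe set stood for each of 19937 genes. KO was compared with WT in limma 3.58.1 (R 4.3.3; lmFit, eBayes, no covariates, two-sided, Benjamini-Hochberg over all genes, threshold 0.05), which was tested on simulated data. Exact permutation tests used 20 relabellings.

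The 8 genes and 19 further lists were chosen with earlier results of these data known. The rule for naming took the 8, Myc, Irf8, Irf4, up to 4 called genes with the largest differences per list (or 2 uncalled), and the 5 most like Prdm1 by Pearson r. Some of these appear only within the counts of their lists. Genes outside this rule are marked as named after their values were seen. RefSeq promoters (GRCm38.p6) were cut to the 250 bases before the start. Alternatives were quantile normalization, centred medians, bright genes alone, array weights, RefSeq-matched probe sets, the mean of probe sets, a replicate block, a robust fit with a variance trend (statmod 1.5.0) and leaving out arrays. Figures were drawn with matplotlib 3.10.9.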

Additional observations from a re-analysis of the deposited data

How the results depend on the processing

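Over 15 alternatives and 81 genes of the lists and rules, 1087 of 1200 values kept their side of the threshold, 65 lost their call, 48 gained one and 0 called values changed sign. These totals include a value for C1qb among bright genes and a value for Ighm with RefSeq-matched probe sets. Neither gene entered that fit, so these values belong to other genes, and that of C1qb was counted as a lost call. Prdm1 (differences of 3.25 to 3.69, adjusted p of 4.9e-05 to 0.0041) and Sdc1 (2.22 to 2.81, 0.000154 to 0.0212) passed under all 15. Over all genes, 459 were higher and 415 lower. Array weights gave 716 and 647, and leaving out both arrays numbered 1 gave 741 and 641. Leaving out single arrays gave 249 to 780 higher and 202 to 719 lower genes, the lowest without KO replicate 2 and the highest without KO replicate 1, with 259 and 273 without WT replicate 2, 284 and 219 without WT replicate 3, and 251 and 211 without KO replicate 3. Of the 8 genes, 2 to 3 were higher and 0 to 1 lower in these fits, and without KO replicate 3 the 1 lower gene was Mzb1 and not Txndc5. The replicate number as a block gave 707 higher and 655 lower genes and called Bcl6 (adjusted p = 0.036). Deviations of equally numbered arrays correlated at 0.379, 0.097 and 0.252. KO replicates 1 and 3 correlated best with the WT array of their own number, and KO replicate 2 with WT replicate 3 (0.20). The main fit did not take the number as a pairing, and whether equally numbered arrays share a batch was not tested. Pou2af1 and Tnfrsf17 were too dim to enter the fit of bright genes.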
